A study of Mus musculus with 6 samples.

Results

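Extracellular matrix and mesenchymal genes were followed in the mouse colon adenocarcinoma line MC38 as a set of 38 genes chosen by symbol: collagen and laminin chains, matrix glycoproteins and proteoglycans, collagen-processing enzymes, metalloproteinases with their inhibitors, transcription factors of the epithelial-mesenchymal transition (EMT), the cadherin gene Cdh2 and the intermediate filament gene Vim. All 38 had a row among the 24181 genes of the deposited count table. The labels describe 3 samples of parental MC38 cells (genotype WT) and 3 of MC38 cells expressing STING-N153S, a mutant form of the innate immune adaptor STING, all grown in DMEM. The 3 parental libraries were analysed, while for STING-N153S the table offers 6 columns in 2 sets against 3 samples. Those were not used here, and no effect of STING-N153S on these genes is given. The deposited annotation lists the 3 parental samples as separate biological replicates with the same technical replicate entry, without saying what was replicated (a culture, a passage or an extraction). The p-values below set differences between these samples against counting error, and no spread between replicates was estimated for them.

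The extracellular matrix is the scaffold of collagens, laminins, glycoproteins and proteoglycans that cells secrete and adhere to. Fibrillar collagens bear tension, type IV collagen and laminins form the basement membrane, and matrix metalloproteinases and their tissue inhibitors (TIMPs) set how fast the scaffold is degraded. During EMT, transcription factors of the ZEB, SNAIL and TWIST families repress epithelial genes, and cells gain vimentin, N-cadherin and matrix genes. In colon carcinoma most matrix is made by fibroblasts of the stroma, while carcinoma cells that have lost epithelial traits can make part of it themselves.

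Levels are given as CPM, the counts of a gene per 1000000 counts of its library, whose totals lay between 3210024 and 4020023 counts. Fragments came from the 3' end of each transcript, so the values were not divided by gene length, and comparisons between genes below rest on that. A count of 3 corresponded to 0.746 to 0.935 CPM in a single library, and values near or under it are close to the detection limit. Of the 38 genes, 31 averaged 1 CPM or more, against 49.5% of all genes listed. At 10 CPM or more were 26 of them (31.2% of all genes), and at 100 CPM or more 7 (8.54% of all genes). The median gene of the set had 24.2 CPM, beside 0.941 CPM for all genes listed and 3.14 CPM for genes with a count. The set was chosen with earlier results of these data known, so these comparisons with all genes are not a test. The summed level of the set was 5931, 6019 and 6413 CPM in replicates 1 to 3, or 0.612% ± 0.0257 of the library (SD, n = 3). Vim alone made up 49.9% ± 0.845 of that sum, and the 6 highest genes (Vim, Serpinh1, Timp2, Sparc, Timp1 and Mmp14) made up 87.8% ± 0.376 (SD, n = 3). The 7 genes below 1 CPM were Col1a2, Lox, Tnc, Mmp3, Loxl2, Lum and Timp3.

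**Figure D1:**
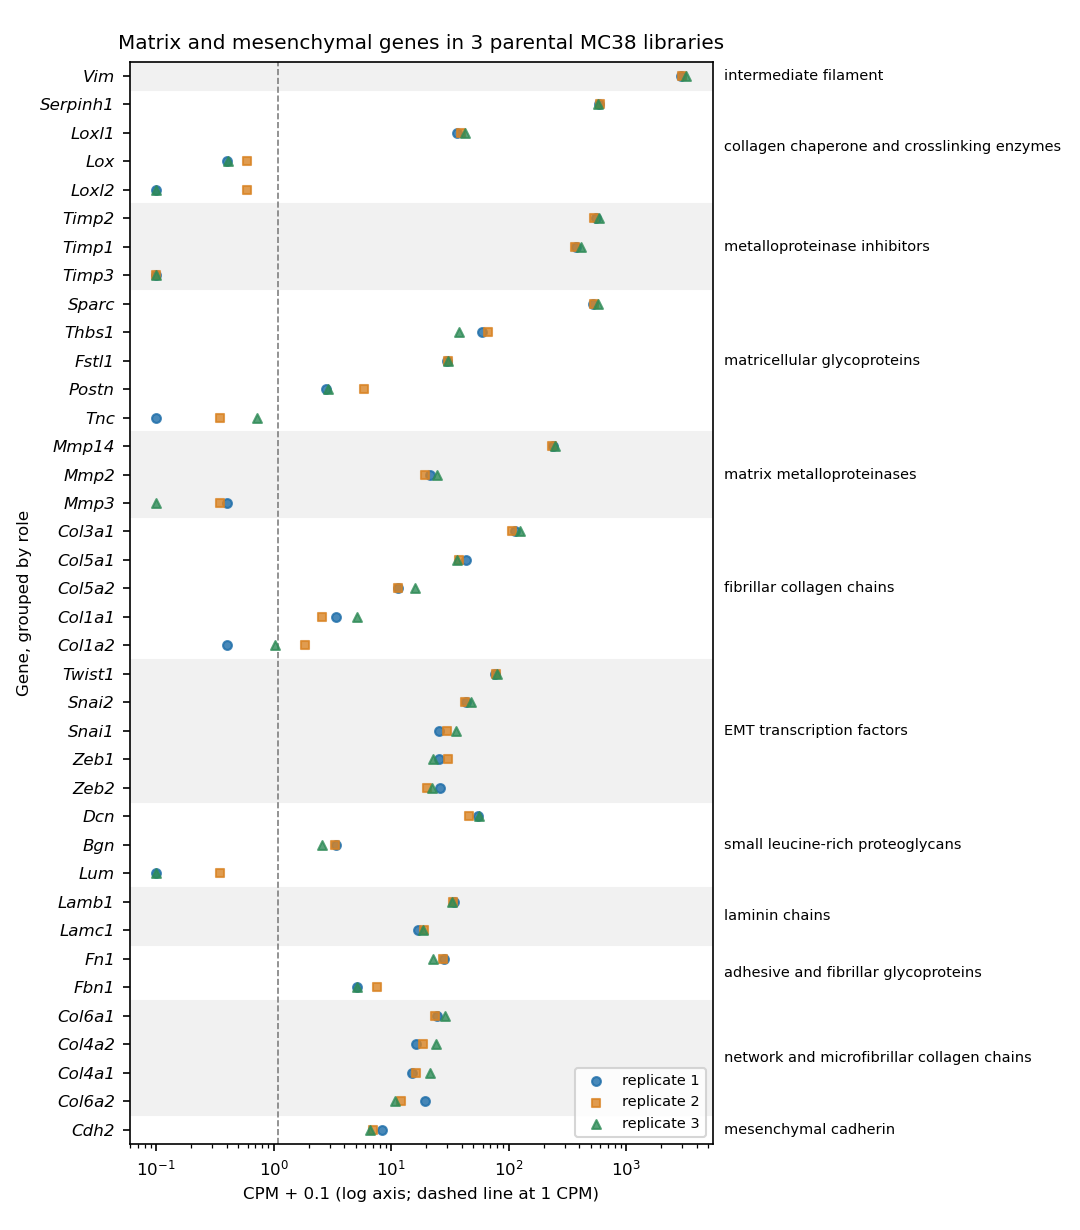
Level of each of the 38 genes in the 3 parental libraries, as CPM + 0.1 on a log axis, with genes grouped by role and 1 point per library. The highest point of the plot is Vim in replicate 3 at 3251 CPM, and 7 genes have a mean below 1 CPM.

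The label of the line was set against markers of cell types. None of the 9 intestinal epithelial markers analysed, of 20 listed, reached a mean of 1 CPM, and their summed level was 0.595, 0.746 and 1.25 CPM in replicates 1 to 3. The keratin gene Krt8 had 1 count over the 3 libraries, Krt19 and the microvillus gene Vil1 had 1 each, and Cdx1, Fabp2 and the stem cell gene Lgr5 had 0. The epithelial cadherin gene Cdh1 and Epcam were not analysed here. The pooled counts of Vim and Krt8 stood at a ratio of 32319, with an exact 95% interval from 5800 to 1276572. The 9 epithelial markers analysed were thus at or near 0 in cells labelled as colon adenocarcinoma, and the other 11 listed were not analysed here.

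Markers of other cells that make matrix were mixed. Of 6 fibroblast and pericyte markers analysed, of 8 listed, 3 reached 1 CPM: Pdpn, which encodes podoplanin, with 43.0 ± 4.30 CPM, Pdgfra with 12.8 ± 2.69 CPM and Acta2 with 8.39 ± 0.840 CPM (SD, n = 3). Pdgfrb had a mean of 0.667 CPM, Rgs5 had 1 count and Des had 0, and the summed level of the list ran from 60.7 to 68.8 CPM. None of 5 endothelial markers, at 0.312 to 1.19 CPM in sum, and none of 5 myeloid markers, at 0.893 to 1.74 CPM in sum, reached 1 CPM. In bulk RNA a few cells with much of a transcript and many cells with little of it cannot be told apart, and the part of fibroblast-like cells in the matrix counts was not tested.

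**Figure D2:**
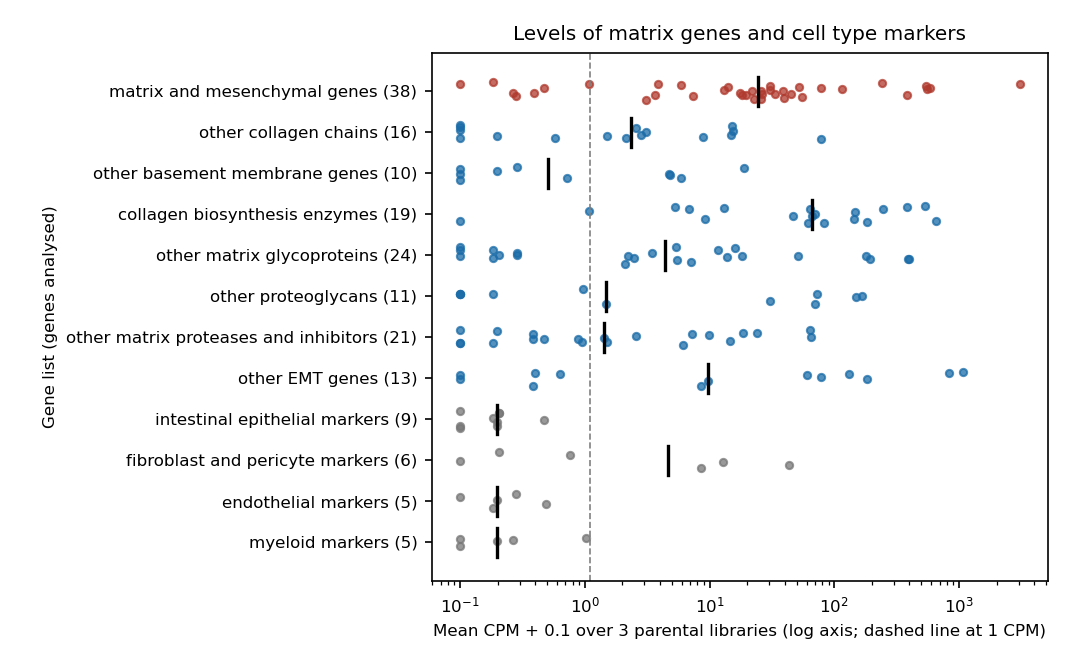
Mean level over the 3 parental libraries of each gene analysed, as mean CPM + 0.1 on a log axis, for the 38 matrix and mesenchymal genes, 7 lists of related genes and 4 lists of cell type markers. Black bars mark list medians, and no intestinal epithelial, endothelial or myeloid marker lies to the right of the line at 1 CPM.

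Vim, which encodes the intermediate filament protein of mesenchymal cells, was the highest gene of the set. It lies on chromosome 2 from 13574311 to 13582826 (RefSeq, GRCm38.p6). Its level was 2907, 3014 and 3251 CPM in replicates 1 to 3, a mean of 3058 ± 176 CPM (SD, n = 3), and it ranked 18th of all 24181 genes. Replicate 3 was the highest of the 3 libraries. Cdh2, which encodes N-cadherin, had 28, 28 and 21 counts, a mean of 7.28 ± 0.938 CPM (SD, n = 3). Its level in the 3 libraries lay between 6.54 and 8.34 CPM, all far below Vim, the other textbook mesenchymal marker.

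All 5 EMT transcription factor genes were above 10 CPM in every library. Twist1, a basic helix-loop-helix factor on chromosome 12 (33957671 to 33959831), was the highest with 75.9, 78.1 and 79.8 CPM. Snai2, a zinc-finger repressor of epithelial cadherin, had 43.2, 42.5 and 48.0 CPM. Its relative Snai1 had 25.6, 29.6 and 35.5 CPM. Twist1 exceeded Snai2 and Snai2 exceeded Snai1 in 3 of 3 libraries. The ratio of Snai2 to Twist1 was 0.572 ± 0.0286 and that of Snai2 to Snai1 1.49 ± 0.174 (SD, n = 3).

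The ZEB factors did not separate from each other. Zeb1 had 25.3, 30.3 and 22.4 CPM and Zeb2 26.2, 20.1 and 22.1 CPM. Zeb1 was the higher in 2 libraries and Zeb2 in 1, and the ratio of their pooled counts was 1.16 with an exact 95% interval from 0.975 to 1.39. Snai1 overlapped with both ZEB genes in its range over libraries. Of the other 13 EMT genes analysed, of 17 listed, 8 reached 1 CPM, led by the tropomyosin gene Tpm1 (1083 ± 38.1 CPM), S100a4 (826 ± 19.9 CPM) and Twist2 (182 ± 7.19 CPM; SD, n = 3). The 5 below 1 CPM were Grhl2, Esrp2 and Esrp1, which maintain the epithelial state, with 3, 3 and 0 counts in all, and the contractile genes Tagln and Cnn1 with 6 and 0.

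The fibrillar collagen chains differed widely in level, from Col3a1 at 115 ± 8.80 CPM (SD, n = 3) down to Col1a2. Col3a1, the only chain of type III collagen, lies on chromosome 1 (45311538 to 45349706) and had 114, 106 and 124 CPM. Col5a1 and Col5a2, chains of the type V collagen that starts fibrils, had 43.2, 37.8 and 36.1 CPM and 11.3, 11.4 and 15.9 CPM. Type I collagen, the main fibril of connective tissue, was close to the detection limit. Col1a1 had 11, 10 and 16 counts, or 3.27, 2.49 and 4.98 CPM. Col1a2 had 1, 7 and 3 counts, a mean of 0.991 ± 0.723 CPM (SD, n = 3) that was 0.616 CPM without replicate 2, and its libraries differed most in proportion among these 5 chains.

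Col3a1 exceeded Col1a1 in 3 of 3 libraries at a ratio of 34.7, 42.8 and 24.9, a mean of 34.1 ± 8.98 (SD, n = 3). The 2 chains of type I collagen, which assemble with more of the first than of the second, stood at 11, 1.43 and 5.33 in replicates 1 to 3, a mean of 5.92 ± 4.81 (SD, n = 3). The interval of replicate 2, 0.491 to 4.42, included 1, and the mean was 3.38 without replicate 1 and 8.17 without replicate 2. The pooled ratio was 3.36, with an exact 95% interval from 1.68 to 7.31 that 11 counts of Col1a2 leave wide. The ratio of Col5a1 to Col5a2 was 3.82, 3.30 and 2.27 in replicates 1 to 3, and the lowest came from replicate 3. Col3a1 and Col5a2 are neighbours, 24.6 kb apart on chromosome 1, and Col5a2 had the lower level in each library.

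Chains of type IV collagen, the network of the basement membrane, were counted at nearly equal levels. Col4a1 had 14.9, 16.2 and 21.2 CPM and Col4a2 16.1, 18.4 and 24.0 CPM, both highest in replicate 3. Their ratio was 0.926, 0.878 and 0.883, a mean of 0.896 ± 0.0262 (SD, n = 3), and the exact 95% interval of the pooled ratio, 0.727 to 1.10, included 1. The genes lie head to head on chromosome 8, and the RefSeq starts used here are 21 bases apart (11312826 for Col4a1 and 11312805 for Col4a2). By the RefSeq bounds of the whole genes, the 2 overlap by 85 bases. An annotated antisense gene overlaps the last 1000 bases of Col4a1, and whether strand was used in counting is not given in these sources, which makes the Col4a1 count uncertain.

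Type VI collagen forms beaded microfibrils. Col6a1 had 24.7, 23.6 and 28.7 CPM and Col6a2 19.4, 11.9 and 10.6 CPM, highest in replicates 3 and 1 respectively. The ratio of Col6a1 to Col6a2 was 1.28, 1.98 and 2.71. The exact 95% intervals of the lowest and the highest, replicates 1 and 3, narrowly missed each other (0.912 to 1.79 and 1.81 to 4.14). Whether the ratio differed between libraries was not tested. The spread of Col6a2 did not pass the test between libraries (p = 0.00372, adjusted p = 0.0972, chi-square test described below). Both genes lie on chromosome 10, 85.2 kb apart. Their partner Col6a3 had 15.3 ± 1.82 CPM (SD, n = 3). Of 16 other collagen chains analysed, of 19 listed, 10 reached 1 CPM, and Col8a1 (78.0 ± 8.93 CPM), Col6a3 and Col16a1 (15.04 ± 2.06 CPM; SD, n = 3) were the highest. Their median, 2.27 CPM, stood beside 12.9 CPM for the 5 fibrillar chains of the set.

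Laminins are trimers of an alpha, a beta and a gamma chain. Lamb1 had 33.9, 33.8 and 32.7 CPM and Lamc1 17.0, 18.9 and 18.7 CPM. The ratio of Lamb1 to Lamc1 was 1.85 ± 0.134 (SD, n = 3), with Lamb1 above Lamc1 in every library. Each of the alpha chain genes analysed was at or near 0, with 1 count of Lama4 over the 3 libraries and 0 of Lama1, Lama2 and Lama3, while Lama5 was not analysed here. Of 10 other basement membrane genes, of 12 listed, 4 reached 1 CPM, among them the perlecan gene Hspg2 (5.80 ± 0.753 CPM), Lamb2 (4.71 ± 1.33 CPM) and the agrin gene Agrn (4.65 ± 0.618 CPM; SD, n = 3).

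Among glycoproteins Sparc, which encodes a collagen-binding matricellular protein also known as osteonectin, was the highest with 527, 533 and 575 CPM. It lies on chromosome 11 from 55394159 to 55420080. Fstl1, a follistatin-like glycoprotein, had 30.1, 30.3 and 30.5 CPM, the smallest SD relative to the mean among the members with counts. That SD was 0.764% of the mean, where counting error alone gives 9.67%, so it does not mark a steadier gene. The ratio of Sparc to Fstl1 was 17.98 ± 0.744 (SD, n = 3). Thbs1, which encodes thrombospondin-1, an activator of latent TGF-beta, had 58.9, 66.7 and 38.01 CPM, with replicate 3 below both others.

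Fibronectin (Fn1), the adhesive glycoprotein bound by integrins, had 28.0, 27.4 and 22.4 CPM, and the microfibril gene Fbn1 5.06, 7.46 and 4.98 CPM. Postn, which encodes periostin, had 9, 23 and 9 counts, so its high value in replicate 2 (5.72 CPM) rests on few counts. Tnc, the tenascin-C gene often counted as a mark of stroma, had 0, 1 and 2 counts. The pooled counts of Fn1 and Tnc stood at a ratio of 92.0, with an exact 95% interval from 31.2 to 449. Of 24 other matrix glycoproteins analysed, of 25 listed, 16 reached 1 CPM, led by the osteopontin gene Spp1 (395 ± 5.003 CPM), Ccn1 (389 ± 15.8 CPM) and Efemp2 (195 ± 1.06 CPM; SD, n = 3). The elastin gene Eln had 0 counts.

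Small leucine-rich proteoglycans bind collagen fibrils. Dcn (decorin) had 55.1, 45.8 and 55.5 CPM and Bgn (biglycan) 3.27, 3.23 and 2.49 CPM, and Dcn was above Bgn in every library at a ratio of 17.7 ± 4.13 (SD, n = 3). Lum (lumican), which lies 47.3 kb from Dcn on chromosome 10, had 1 count in replicate 2 and 0 in the others. The neighbours thus differed by 547 pooled counts to 1, a ratio with an exact 95% interval from 97.8 to 21644. Of 11 other proteoglycans analysed, of 12 listed, 6 reached 1 CPM, and the syndecans Sdc2 (167 ± 5.03 CPM), Sdc4 (149 ± 10.02 CPM) and Sdc1 (73.2 ± 2.22 CPM; SD, n = 3) led them.

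Serpinh1, which encodes the collagen chaperone HSP47 of the endoplasmic reticulum, had 588, 601 and 580 CPM and had the second highest mean of the set, its range overlapping with that of Timp2. It lies on chromosome 7 from 99345375 to 99353239. Its counts exceeded those of Col1a1 at a ratio of 179 ± 62.7 (SD, n = 3). Other genes of collagen synthesis were likewise well counted, with 17 of 19 analysed, of 20 listed, at 1 CPM or more and a median of 66.3 CPM. They were led by P4hb (656 ± 3.50 CPM), a subunit of prolyl 4-hydroxylase and a protein disulfide isomerase, the prolyl isomerase gene Ppib (535 ± 16.7 CPM) and the collagen galactosyltransferase gene Colgalt1 (386 ± 21.8 CPM; SD, n = 3). Adamts2, which removes the amino propeptide of fibrillar collagens, had 0 counts.

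Lysyl oxidases crosslink collagen and elastin outside the cell, and 1 of the 3 in the set carried nearly all the counts. Loxl1 had 36.3, 39.6 and 42.4 CPM. Lox had 1, 2 and 1 counts and Loxl2 0, 2 and 0, both under the level of 3 counts in each library. The pooled ratio of Lox to Loxl1 was 0.00959 (exact 95% interval 0.00260 to 0.0247) and that of Loxl2 to Loxl1 0.00480 (0.000579 to 0.0174). The relatives Loxl3 and Loxl4 had means of 5.18 and 0.974 CPM.

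Metalloproteinase genes differed widely from one another in level. Mmp14, the membrane-anchored metalloproteinase that cleaves fibrillar collagen and activates the gelatinase made from Mmp2, lies on chromosome 14 (54431598 to 54442456) and had 239, 235 and 249 CPM. Mmp2 had 21.4, 19.4 and 24.3 CPM. Mmp3, the stromelysin gene, had 1, 1 and 0 counts. Mmp14 stood above Mmp2 at a ratio of 11.2 ± 0.923 (SD, n = 3), and above Mmp3 at a pooled ratio of 1274 with an exact 95% interval from 352 to 10526.

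Of the inhibitor genes, Timp1 and Timp2 were high and Timp3 had no counts. Timp2, which besides inhibiting metalloproteinases links pro-MMP2 to MMP14 at the cell surface, had 551, 532 and 590.3 CPM. Timp1 had 375, 366 and 412 CPM. Timp3, whose product is bound to the matrix, had 0 counts in each library, which at a limit of 3 counts allows up to 0.283 CPM over their 10588955 counts. Timp2 was therefore at least 1961-fold higher than Timp3, against a floor of 3 counts over the group. In their last 1000 bases Timp1 and Timp3 each overlap a synapsin gene on the opposite strand. Syn1 had 2 counts over the 3 libraries and Syn3 had 0. Reads lost in assignment are not covered by the bound on Timp3.

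Ratios between these genes were also taken within each library. The ratio of Timp1 to Timp2 was 0.680, 0.688 and 0.697, a mean of 0.688 ± 0.00847 (SD, n = 3). That of Timp2 to Mmp14 was 2.30, 2.26 and 2.37, or 2.31 ± 0.0526, and that of Timp2 to Mmp2 25.7, 27.4 and 24.3, or 25.8 ± 1.56 (SD, n = 3). In each of these pairs the exact 95% intervals of the 3 libraries overlapped. Of 21 other matrix proteases and inhibitors analysed, of 22 listed, 11 reached 1 CPM, led by Adam10 (65.2 ± 6.56 CPM), the urokinase receptor gene Plaur (64.2 ± 3.27 CPM) and Adam17 (24.0 ± 2.89 CPM; SD, n = 3). The collagenase gene Mmp13 and Timp4 had 0 counts.

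The sequences upstream of Timp1 and Timp3 and of Mmp14 and Mmp3 are shown, since each high gene has a relative at or near 0. Timp2, which had more counts than Timp1, is not printed. They are RefSeq promoter windows of GRCm38.p6, 5′ to 3′ in the direction of the gene, ending at the base before the annotated start. The window of Timp3 ends 40 bases earlier, because those bases are exon in GENCODE M21. Capitals mark matches on either strand to the TATA box (TATAAA), the GC box (GGGCGG), the CCAAT box (CCAAT), the AP-1 site (TGANTCA) and the E-box bound by ZEB and SNAIL factors (CAGGTG).
Timp1, 384 CPM, chrX:20869916-20870165, plus strand: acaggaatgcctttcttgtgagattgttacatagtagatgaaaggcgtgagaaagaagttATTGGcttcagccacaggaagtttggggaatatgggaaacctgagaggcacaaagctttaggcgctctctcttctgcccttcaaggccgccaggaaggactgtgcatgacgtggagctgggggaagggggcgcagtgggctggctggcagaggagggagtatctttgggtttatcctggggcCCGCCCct
Timp3, 0 counts, chr10:86300162-86300371, plus strand: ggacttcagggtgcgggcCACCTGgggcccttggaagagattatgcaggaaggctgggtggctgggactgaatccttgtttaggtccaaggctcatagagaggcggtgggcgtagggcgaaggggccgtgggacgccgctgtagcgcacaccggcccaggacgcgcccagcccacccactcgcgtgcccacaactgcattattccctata
Mmp14, 241 CPM, chr14:54431348-54431597, plus strand: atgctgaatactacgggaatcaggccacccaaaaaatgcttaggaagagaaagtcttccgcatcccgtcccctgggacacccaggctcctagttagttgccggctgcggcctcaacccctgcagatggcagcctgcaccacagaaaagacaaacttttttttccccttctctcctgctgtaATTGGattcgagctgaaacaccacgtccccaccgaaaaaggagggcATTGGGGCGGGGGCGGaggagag
Mmp3, 0.182 CPM, chr9:7445572-7445821, plus strand: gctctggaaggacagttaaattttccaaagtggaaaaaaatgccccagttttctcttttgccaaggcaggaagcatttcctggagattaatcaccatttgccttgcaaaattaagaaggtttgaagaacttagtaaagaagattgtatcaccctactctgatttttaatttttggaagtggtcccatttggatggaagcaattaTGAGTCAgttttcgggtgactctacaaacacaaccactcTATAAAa

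The Timp1 window held a CCAAT box and a GC box, and that of Mmp14 held 2 of each, the last of them run together. The window of Timp2, not printed, held 1 CCAAT box, 1 GC box and 1 E-box, with 21 CpG in 250 bases. The Mmp3 window held an AP-1 site and a TATA box, with 1 CpG in 250 bases. The printed Timp3 window held 1 E-box and 13 CpG in 210 bases. In the full 250 bases before its start Timp3 also had 1 GC box, and 18 CpG in all. Low counts thus stood beside both a CpG-poor and a CpG-rich window.

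Of the 38 genes, 24 had a promoter window in the RefSeq table, and the same motifs were counted in the 250 bases before the start of each. A GC box was found in 15 of 24, against 32.7% of 32851 windows of all genes, and a CCAAT box in 11, against 33.8%. The TATA box was found in 5 (Col3a1, Vim, Tnc, Mmp3 and Twist1), against 12.4%, the AP-1 site in 2 (Mmp3 and Col6a1), against 6.75%, and the E-box in 3 (Snai1, Timp3 and Timp2), against 17.2%. The CpG count ran from 0 in Col3a1 to 31 in Col4a1, with a median of 11 beside 6 over all windows. A match is a description of the letters and not a binding site.

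Genes were compared in 24 chosen pairs. These held genes of 1 protein, relatives, enzymes with their inhibitors, and other pairs such as Vim with Krt8 and Serpinh1 with Col1a1. Of the 24 pairs, 23 kept the same order in 3 of 3 libraries, Zeb1 and Zeb2 being the exception. The exact 95% interval of the pooled ratio lay clear of 1 in 22, the others being Zeb1 with Zeb2 and Col4a1 with Col4a2. Several pairs set a high gene against one near the detection limit, as Vim with Krt8 (32319 to 1 pooled counts). In such pairs both results follow from the levels already given. Other gene pairs were not counted for comparison, and members were chosen with earlier results known, so neither count is a test. In level, neighbours such as Timp2 and Sparc, or Zeb1, Fn1 and Col6a1, overlapped between libraries and are not ordered by these data.

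**Figure D3:**
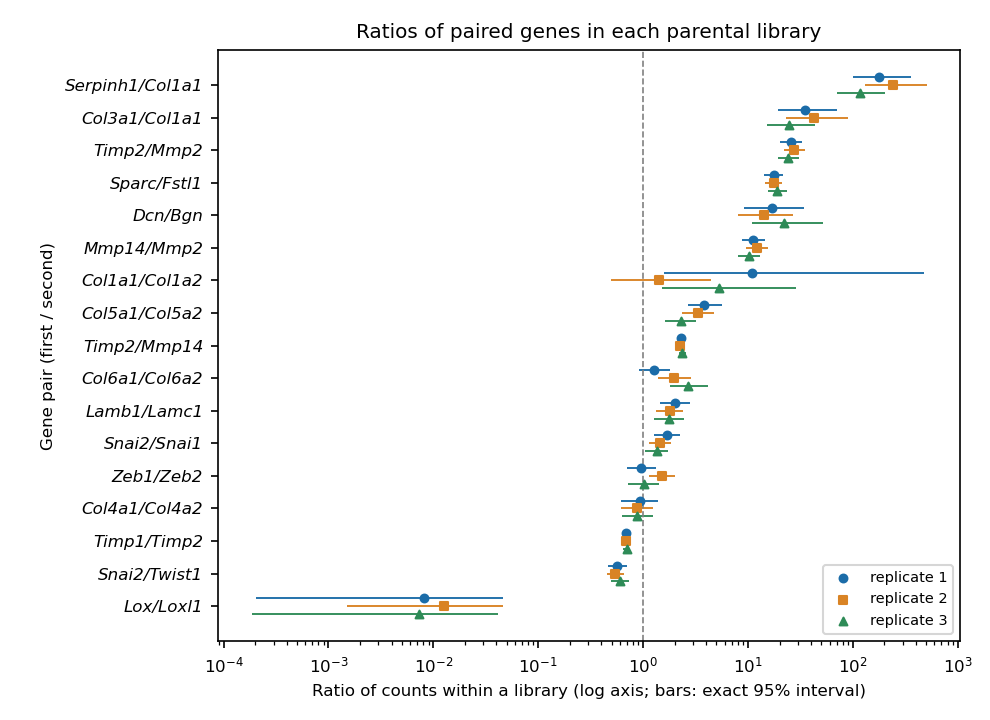
Ratio of counts of 2 genes within each parental library on a log axis, for the 17 pairs with counts of both genes in every library, with 1 point per library and exact 95% intervals as bars. The ratios of Timp1 to Timp2 lie between 0.680 and 0.697, while those of Col1a1 to Col1a2 have wide bars.

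Differences among the 3 parental libraries were tested last; they say nothing of conditions. Counts were tested per gene by a chi-square test against shares proportional to library sizes taken from median-ratio scaling. Benjamini-Hochberg adjustment ran over the 11118 genes whose expected count was 5 or more in all libraries. Of the 38 genes 31 could be tested, and 2 of them, Vim and Thbs1, varied beyond counting noise at an adjusted p under 0.05, where 2.8% of all genes tested did. They went in opposite directions in the same library. Vim in replicate 3 was 1.10-fold the mean of the others (adjusted p = 5.9e-12), and Thbs1 0.605-fold (adjusted p = 0.00016).

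The test finds smaller differences where counts are high, and the 2 genes differ in that. Vim is among 137 genes with at least 10000 pooled counts, of which 46.0% varied, and its highest library was 1.118-fold its lowest. Thbs1 is among 5520 genes with 100 to 1000 pooled counts, of which 1.58% varied, and its highest library was 1.75-fold its lowest. Without replicate 3 the adjusted p of the chi-square test was 0.519 for Vim and 0.81 for Thbs1, and 0 of 31 genes varied. An unadjusted p under 0.05 was found for 3 of the 31, and for 926 of all 11126 genes tested. The exact binomial test between replicates 1 and 2 also called 0 of the 31, where it called 60 of 11126 genes tested. By that test 2 of the 31 had an unadjusted p under 0.05, a count not taken over all genes. Replicate 3 stood apart over the whole table too, since without it 61 genes varied by the chi-square test in place of 311. Its part in the values of Vim and Thbs1 beyond that was not tested.

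The next genes in order did not pass the test. The adjusted p was 0.0669 for Timp2, 0.0972 for Col6a2, 0.101 for Timp1 and 0.215 for Sparc. Timp2, Timp1 and Sparc were, like Vim, highest in replicate 3, at 1.09-fold, 1.11-fold and 1.08-fold the mean of the others. Of the 31 genes tested, 18 (58.1%) were highest in replicate 3, where 34.8% of all genes tested were. Lowest there were 10 (32.3%), where 35.5% of all genes tested were. The median of the highest over the lowest library was 1.21 for the set and 1.22 for all genes tested.

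**Figure D4:**
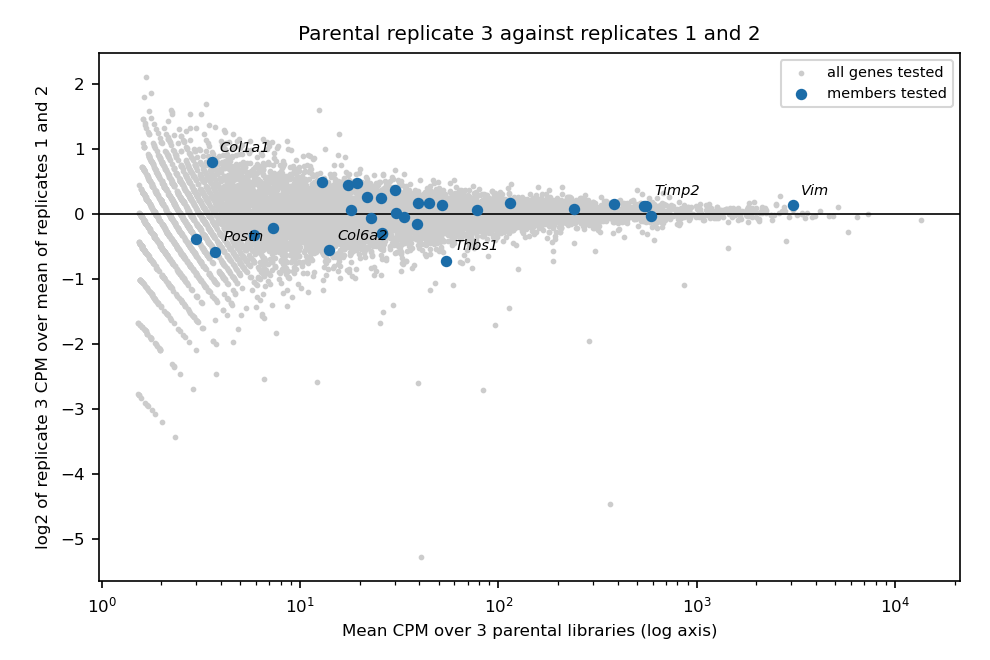
Log2 ratio of CPM in parental replicate 3 to the mean of replicates 1 and 2, against mean CPM on a log axis, for 11118 genes tested except 2 without counts on 1 side (grey) and the 31 matrix and mesenchymal genes tested (blue). Thbs1 lies below the cloud at its level and Vim slightly above 0 at the right.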

How the data were processed

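Bulk 3'-end RNA libraries of MC38 cells were used. The authors deposited whole-number counts per gene, per the file headers from untrimmed reads, GRCm38, GENCODE M25, Picard 2.18.26, STAR 2.7.5b and Drop-seq tools 1.12. Collapsing of UMIs and the treatment of multi-gene reads are not given in the sources used here. Intervals, floors and p-values rest on counting error only. They take each count as independent, which reads not collapsed by UMI would not be. The deposited annotation names 3 barcodes as wild type with replicate numbers, which were matched to the 3 parental samples. The other 6 columns were not mapped and not used, so the planned edgeR comparison of STING-N153S with parental cells was not run.

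Counts were divided by library totals to give CPM. The chi-square test used median-ratio scaling, an expected count of at least 5 and a false discovery rate of 0.05. It was also run on simulated counts with counting error only. These hold the noise that the test assumes, so they cannot show how it behaves under a wider spread. Intervals of ratios are exact (Clopper-Pearson) at 95% from counts. Alternatives changed scaling (TMM of edgeR 4.0.16, size factors of DESeq2 1.42.0, totals without the 20 highest genes), minimum levels, the test and the libraries. Python 3.11.15, scipy 1.17.1 and R 4.3.3 were used. Positions and promoters are from RefSeq on GRCm38.p6, overlaps from GENCODE M21. All members are named, with the 3 highest of each other list (1 basement membrane gene is not reported here), genes of the pairs and, chosen after values were seen, genes at or near 0 and single relatives. The members and lists were chosen with earlier results of these data known.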

Additional observations from a re-analysis of the deposited data

How the results depend on the processing

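Of the 38 genes, 31 to 32 reached the minimum when 1 library was left out, when the scaling changed or when the minimum was 0.5 or 2 CPM. The genes varying between libraries numbered 61 to 274 when 1 library was left out (311 with all), and the members among them 0 to 2. Both lowest values came without parental replicate 3, where Vim had an adjusted p of 0.519 and Thbs1 of 0.81. Tests on 2 libraries hold fewer counts. In the other alternatives run, Vim and Thbs1 were the 2 members called, with 274 to 322 genes called in all. Totals without the 20 highest genes, of which Vim is 1, raised the summed level from 6121 to 6742 CPM and the median from 24.2 to 26.7 CPM, by construction. The summed level without Vim was 3064 CPM, and the median over members with a count in every library was 26.03 CPM. Under TMM and DESeq2 scaling each member's mean moved by less than 1 SD, but their factors are so near 1 that this does not show stability. With totals without the 20 highest genes, 14 of 38 members moved by more. With 3 libraries, leaving out 1 cannot move a mean by as much as 1 SD, so such shifts say nothing of stability. The ratio of Col1a1 to Col1a2 went from 5.92 to 3.38 without replicate 1, and to 3.36 with pooled counts. The edgeR comparison of STING-N153S with parental cells and its alternatives (DESeq2, no filter, replicate block, leave-one-out) were not run. No paired analysis was possible because the STING-N153S columns could not be mapped to samples.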
